A study of Mus musculus with 9 samples.

Results

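The teneurin genes Tenm1, Tenm2, Tenm3 and Tenm4 and the Flrt genes Flrt1, Flrt2 and Flrt3 were examined in the fetal mouse brain after early gestational EtOH exposure. They are 7 of the 27095 loci in the deposited expression table. The members were chosen by symbol, with Tenm2 and Tenm3 selected on their group values in affected against unaffected offspring. Levels in that comparison are therefore given as a description. The comparisons with control each share a group with it, so they are a description as well.

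The animals were wild type C57BL/6 mice, given as C57BL/6J in the methods of the study, and tissue was collected on gestational day 17. The labels call the tissue fetal brain, while the methods of the study describe dissected cortex. Control fetuses came from dams injected with lactated Ringer's solution. EtOH-exposed fetuses came from dams that received EtOH by intraperitoneal injection on gestational day 7, at 2.9 g/kg, and were sorted into an unaffected and an affected group by scoring ocular and cortical patterning defects. Each group had 3 animals, or 9 in all, and the sexes of the sequenced fetuses are not given in the sources used here. The table gives 1 pooled value per group and locus, in FPKM, a count of fragments divided by both exon length and library size. It holds 0 columns of values of single animals, so no spread between animals could be computed and no difference below was tested.

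Teneurins are large single-pass transmembrane proteins with the amino terminus inside the cell and a long extracellular part that carries EGF-like repeats and a barrel-shaped domain. They bind latrophilins, adhesion G protein-coupled receptors on the facing cell, and also bind other teneurins. Flrt proteins are leucine-rich repeat proteins with a fibronectin type III domain that bind the same latrophilins, and they also bind Unc5 receptors, through which they repel migrating neurons and axons. In the developing brain these families are known for roles in axon guidance, the sorting of neurons during migration and the matching of synaptic partners.

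The teneurins are among the longest genes of the mouse genome. In the GENCODE M21 annotation of GRCm38, the build that UCSC calls mm10, Tenm2 spans 1229 kb, Tenm1 901 kb, Tenm4 740 kb and Tenm3 616 kb, and their longest transcripts have 29 to 33 exons. Flrt2 spans 93.0 kb, Flrt3 20.6 kb and Flrt1 13.7 kb, with 2 or 3 exons in the longest transcript. The longest coding sequences run to between 2715 and 2833 codons in the teneurins and between 649 and 674 codons in the Flrt genes.

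In the deposited table, Tenm2 lies at chr11:36006659-36944243, Tenm3 at chr8:48225578-48674747, Tenm4 at chr7:96210600-96911076 and Tenm1 at chrX:42530071-43410749. Flrt2 lies at chr12:95692226-95785267. The loci that carry the names Flrt1, chr19:7056761-7198062, and Flrt3, chr2:140395430-142390050, also cover the host genes Macrod1 and Macrod2, in whose introns the Flrt genes lie on the opposite strand.

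The start of a gene model bears on which exons a value covers, so the 60 bases before the RefSeq start of 4 members are shown (RefSeq, GRCm38.p6, 5′ to 3′ on the strand of the gene). Of the 7 members, 6 had an entry in the sequence table. Capitals mark an AG at the very end, the pair of bases that closes an intron. Among 32851 RefSeq starts in that table, 6.07% are preceded by AG. The windows are chr11:36944242-36944301 (minus strand) for Tenm2, chrX:43274785-43274844 (minus strand) for Tenm1, chr8:48674691-48674750 (minus strand) for Tenm3 and chr12:95692166-95692225 (plus strand) for Flrt2.

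Tenm2: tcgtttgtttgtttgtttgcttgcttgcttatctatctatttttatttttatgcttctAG

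Tenm1: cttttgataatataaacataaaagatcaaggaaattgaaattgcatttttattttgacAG

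Tenm3: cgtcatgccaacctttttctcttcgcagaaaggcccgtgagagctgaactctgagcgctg

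Flrt2: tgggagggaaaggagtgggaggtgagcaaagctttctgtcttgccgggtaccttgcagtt

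The RefSeq start of Tenm2 coincides with the start of an internal exon in 2 GENCODE transcripts and is the first base of 0. It lies 292 kb downstream of the most distant GENCODE start of the gene, and the locus in the table ends beside it. The Tenm2 value thus covers the exons from that point on. For Tenm1, the RefSeq start is preceded by AG as well and lies 154 kb inside the GENCODE gene, but it matches no GENCODE exon start. The Tenm1 locus in the table reaches further upstream, to position 43410749, so this window does not mark where the Tenm1 value begins. The starts of Tenm3 and Flrt2 are each the first base of 1 GENCODE transcript. That of Flrt2 is also the GENCODE start of the gene. That of Tenm3 lies 169 kb inside the GENCODE gene, and the locus in the table ends beside it, so exons further upstream are not covered. The Tenm4 locus likewise begins near a RefSeq start that lies 40.4 kb inside its gene. The table does not separate transcripts of a gene, and the use of alternative first exons was not analysed here.

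Tenm2 was the most abundant teneurin in every group. It stood at 11.2 FPKM in the control group, 7.37 in the unaffected group and 16.0 in the affected group. The affected value was 2.16-fold the unaffected value, a log2 difference of 1.11. Against control, the affected value was 1.42-fold higher (log2 0.51), and the unaffected value was 0.657 times the control value (log2 -0.61). The control level thus lay between the exposed groups, with 45.6% of the log2 distance from unaffected to affected above it.

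Tenm3, which is known for matching axons with their targets in the visual system and hippocampus, stood at 9.37 FPKM in the control group, 6.69 in the unaffected group and 14.4 in the affected group. The affected value was 2.16-fold the unaffected value (log2 1.11) and 1.54-fold the control value (log2 0.63). The unaffected value was 0.714 times the control value (log2 -0.49). As for Tenm2, the highest value was in the affected group and the lowest in the unaffected group.

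Tenm4, a gene with a known role in the differentiation of oligodendrocytes, stood at 7.99 FPKM in the control group, 6.35 in the unaffected group and 11.7 in the affected group. The affected value was 1.85-fold the unaffected value (log2 0.89) and 1.47-fold the control value (log2 0.55), while the log2 difference of unaffected against control was -0.33. The affected group stood further from control than the unaffected group did, with 62.5% of the log2 distance above control.

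Tenm1, the X-linked teneurin, was the least abundant member. The control group stood at 1.66 FPKM, the unaffected group at 1.35 and the affected group at 1.99. The log2 differences were 0.56 for affected against unaffected, 0.26 for affected against control and -0.30 for unaffected against control. The order of the groups was that of the other teneurins, at a level near the minimum mean of 1 FPKM that was required for counting a locus.

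Flrt2 and Flrt3 were the most abundant members and differed least between the affected group and each other group. Flrt2, which guides migrating cortical neurons through Unc5 receptors, stood at 15.5 FPKM in the control group, 14.8 in the unaffected group and 17.4 in the affected group. The log2 differences of Flrt2 were 0.23, 0.16 and -0.07 for affected against unaffected, affected against control and unaffected against control. Flrt3 stood at 14.5 FPKM in the control group, 14.6 in the unaffected group and 16.8 in the affected group, and its log2 differences in the same order were 0.20, 0.21 and 0.01. The higher affected against unaffected values of Flrt2 and Flrt3 turned to log2 differences of -0.05 and -0.09 when all values were centred on genes with transcripts of at least 5 kb. That centring also took Flrt2 to -0.02 against control in affected offspring and to 0.02 in unaffected offspring.

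Flrt1 was expressed at about the level of Tenm1. The control group stood at 1.74 FPKM, the unaffected group at 1.68 and the affected group at 2.45. The affected value was 1.46-fold the unaffected value (log2 0.54) and 1.41-fold the control value (log2 0.50). Of the log2 distance from unaffected to affected, 91.5% lay above control. The log2 difference of unaffected against control was -0.05, which became 0.03 when values were centred on loci spanning at least 100 kb and 0.05 when they were centred on genes with transcripts of at least 5 kb.

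**Figure D1:**
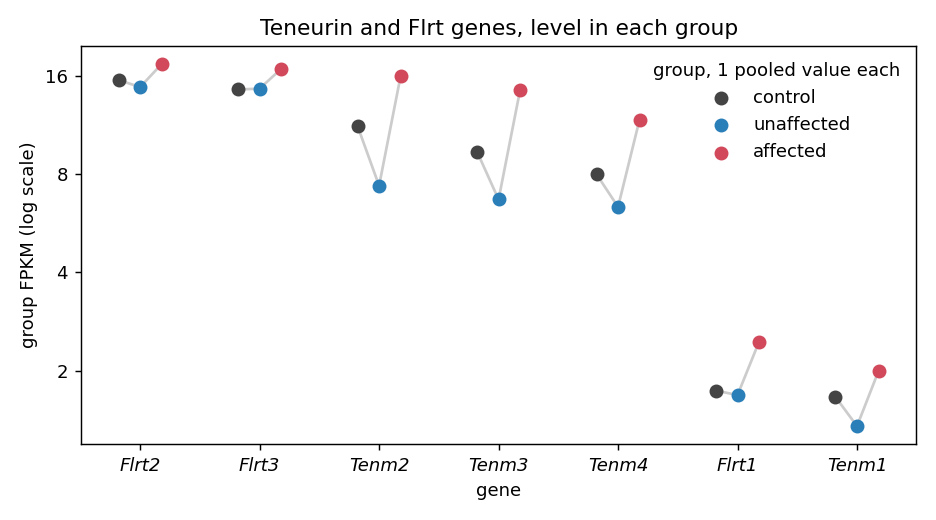
FPKM of the 7 genes (log scale) in the control group and in both EtOH-exposed groups, unaffected and affected, ordered by control level. Each point is 1 pooled group value, lines join the groups of a gene and no error is available. As deposited, the affected value is the highest for every gene, and for all but Flrt3 the unaffected value is the lowest. Centring on long transcripts puts Flrt2 and Flrt3 lower in affected than in unaffected offspring. Of 15455 loci with a mean of at least 1 FPKM, 7916 are higher in affected than in unaffected offspring and 8187 higher than in control. Of 2752 genes with transcripts of at least 5 kb, 2282 and 2249 are, and 646 are higher in unaffected than in control.

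The level order was the same in the 3 groups, namely Flrt2, Flrt3, Tenm2, Tenm3, Tenm4, Flrt1 and Tenm1 from high to low. Because FPKM is scaled to exon length, these levels can be set side by side. Without a spread between animals, however, it cannot be said which neighbours in that order differ beyond their error. The closest neighbours in control were Flrt1 and Tenm1, at 1.74 and 1.66 FPKM, and then Flrt2 and Flrt3, at 15.5 and 14.5.

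Summed over the 4 genes, the teneurins had 30.2 FPKM in the control group, 21.8 in the unaffected group and 44.1 in the affected group, a log2 difference of 1.02 for affected against unaffected, 0.55 for affected against control and -0.47 for unaffected against control. Tenm2 made up 37.1% of the sum in the control group, 33.9% in the unaffected group and 36.1% in the affected group. Tenm3 made up between 30.7% and 32.7%, so the make-up of the family varied little beside its total. The Flrt sum was 31.8 FPKM in the control group, 31.1 in the unaffected group and 36.6 in the affected group. The ratio of the teneurin sum to the Flrt sum was thus 0.951 in the control group, 0.700 in the unaffected group and 1.20 in the affected group. In bulk tissue, fewer cells that express a gene and less of its RNA per cell cannot be told apart.

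To read the size of these differences, a locus was counted as higher or lower when its group values differed by more than 1.5-fold, among the 15455 loci with a mean of at least 1 FPKM over the groups. All 7 members met that minimum. Between affected and unaffected offspring, 3 of the 7 members were more than 1.5-fold higher, namely Tenm2, Tenm3 and Tenm4, and 0 were lower. Of all loci, 7.19% were higher and 5.1% lower in the same comparison, and of the 12354 loci that carry the name of a single gene 3.44% were higher. The choice of the members rests on this comparison, so nothing is read from the count. The nearest member past the 1.5-fold limit was Tenm4 at 1.85-fold, and just short of it were Tenm1 at 1.47-fold and Flrt1 at 1.46-fold.

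Between affected and control offspring, 1 of 7 members was more than 1.5-fold higher, namely Tenm3 at 1.54-fold, and 0 were lower, beside 3.47% of all loci higher, 3.1% lower and 0.559% of single named genes higher. Tenm4 at 1.47-fold, Tenm2 at 1.42-fold and Flrt1 at 1.41-fold lay just below the limit. Between unaffected and control offspring, 1 of 7 members was more than 1.5-fold lower, namely Tenm2, and 0 were higher, beside 3.03% of all loci lower and 2.45% higher. The single counts of Tenm3 and Tenm2 each went to 0 when values were centred on loci spanning at least 100 kb or on genes with transcripts of at least 5 kb. Each pair of comparisons shares a group of animals, so they are not independent of one another.

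**Figure D2:**
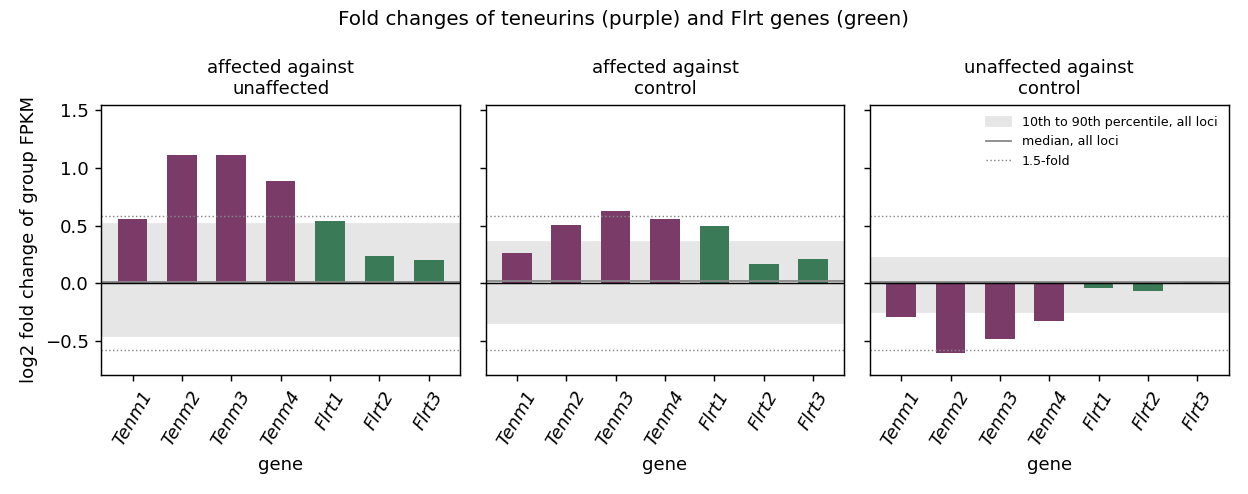
Log2 fold change of group FPKM for the teneurins (purple bars) and Flrt genes (green bars) in the 3 comparisons, with the median (grey line) and the 10th to 90th percentiles (grey band) of all 15455 loci and the 1.5-fold limits (dotted lines). Tenm2, Tenm3 and Tenm4 lie outside the band in every comparison, whereas Flrt2 and Flrt3 lie inside it in every comparison.

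The median log2 difference of the 7 members was 0.56 for affected against unaffected, 0.50 for affected against control and -0.30 for unaffected against control, beside medians over all loci of 0.01, 0.02 and 0.01. Split by family, the teneurin medians were 1.00, 0.53 and -0.41 and the Flrt medians were 0.23, 0.21 and -0.05. The teneurin medians, which include the selected Tenm2 and Tenm3, lay further from 0 in each comparison. That difference between families was not tested. Among all loci, Tenm2 stood at the 98.6 percentile in affected against unaffected, the 95.4 percentile in affected against control and the 2.87 percentile in unaffected against control. Flrt3 stood at the 69.3, 76.4 and 50.4 percentiles.

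The latrophilins, which are the receptors shared by teneurins and Flrt proteins, followed the same order of groups as the teneurins. Adgrl1, named Lphn1 in the table, stood at 32.7 FPKM in the control group, 25.8 in the unaffected group and 41.5 in the affected group, with log2 differences of 0.68 for affected against unaffected, 0.34 for affected against control and -0.34 for unaffected against control. Adgrl2 had an FPKM of 24.5, 21.1 and 31.1 in control, unaffected and affected offspring, and Adgrl3 one of 12.7, 10.1 and 14.9. Their log2 differences for affected against unaffected were both 0.56. The latrophilin sum was 69.9 FPKM in the control group, 57.05 in the unaffected group and 87.5 in the affected group, above the teneurin sum in every group. The ratio of the teneurin sum to the latrophilin sum was 0.433 in the control group, 0.381 in the unaffected group and 0.505 in the affected group.

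Among the Unc5 genes, which encode netrin receptors that Flrt proteins also bind, the sums were 21.7 FPKM in the control group, 19.5 in the unaffected group and 26.6 in the affected group. Unc5a had an FPKM of 9.95, 9.22 and 12.7 in control, unaffected and affected offspring. Unc5d, the receptor paired with Flrt2 in cortical migration, had one of 7.10, 6.28 and 8.03. Unc5c had 2.40, 1.73 and 2.64 FPKM, the widest log2 difference of the family for affected against unaffected at 0.61. Unc5b was the only one of the 4 that was not lower in unaffected than in control offspring, at 2.27 FPKM in control, 2.29 in unaffected and 3.22 in affected.

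Other binding partners of Flrt proteins are Robo1, a Slit receptor that Flrt3 binds, and Fgfr1, whose signalling Flrt proteins modulate. Robo1 stood at 35.2 FPKM in the control group, 29.6 in the unaffected group and 45.8 in the affected group, and Fgfr1 at 21.4, 20.1 and 26.5. Their log2 differences for affected against unaffected were 0.63 and 0.40. Of the 9 partners, 3 were more than 1.5-fold higher in affected than in unaffected offspring, namely Adgrl1, Unc5c and Robo1, and 0 were lower, beside 7.19% of all loci and 11.4% of genes spanning at least 100 kb that were higher. The count became 0 when values were centred on loci spanning at least 100 kb or on genes with transcripts of at least 5 kb. In affected against control and in unaffected against control, 0 of 9 were past the limit. The partner medians were 0.56, 0.34 and -0.21 in the 3 comparisons, each closer to 0 than the teneurin median. The teneurin median includes Tenm2 and Tenm3, which were selected on their values, and the difference was not tested.

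**Figure D3:**
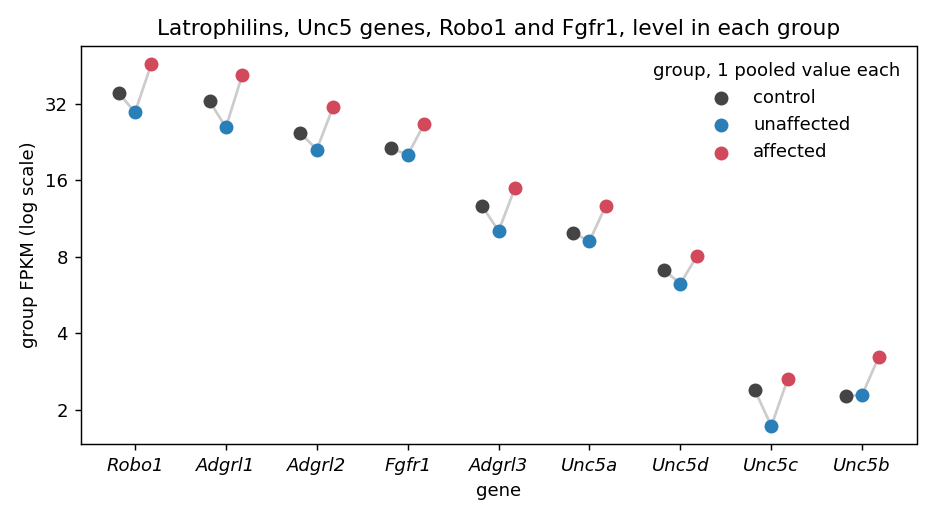
FPKM of the 9 binding partners (log scale) in the control group and in both EtOH-exposed groups, unaffected and affected, ordered by control level. Each point is 1 pooled group value and lines join the groups of a gene. As deposited, the affected value is the highest for every gene, and the unaffected value is the lowest for all but Unc5b. Of 2752 genes with transcripts of at least 5 kb, 2282 are higher in affected than in unaffected offspring and 2249 higher than in control. Of all 15455 loci, 7916 and 8187 are. Centring on long transcripts puts Unc5c at -0.04 and Unc5d at -0.0058 (log2) in affected against control and Fgfr1 at 0.0067 in unaffected against control.

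A list of 29 other synaptic adhesion genes, which held neurexins, neuroligins, Lrrtm, Slitrk and calsyntenin genes among others, was set beside them. Of these, 28 met the minimum level. Only Clstn2, a calsyntenin, was more than 1.5-fold higher in affected than in unaffected offspring, at 16.0 FPKM in the control group, 12.6 in the unaffected group and 19.4 in the affected group, and 0 of 28 were lower, beside 7.19% of all loci higher and 5.1% lower. The log2 differences of the list ran from -0.16 to 0.63 with a median of 0.36. Its medians in affected against control and unaffected against control were 0.18 and -0.14, with 0 genes past the limit in either direction.

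Gene length moved with these differences. In affected against unaffected offspring, the median log2 difference was -0.19 over 2788 genes spanning under 10 kb, 0.03 over 2340 genes of 25 to 50 kb, 0.22 over 1037 genes of 100 to 200 kb and 0.33 over 269 genes of at least 400 kb. The class of at least 400 kb had medians of 0.17 in affected against control and -0.15 in unaffected against control. Of the 1784 genes spanning at least 100 kb, 11.4% were more than 1.5-fold higher in affected than in unaffected offspring and 0.953% were higher in affected than in control offspring. Of the 269 genes of at least 400 kb, 17.5% and 1.12% were higher in these comparisons. All 4 teneurins belong to the class of at least 400 kb, whereas the 3 Flrt genes span less than 100 kb.

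Among the 269 genes of at least 400 kb, Tenm2 ranked 1, Tenm3 ranked 2, Tenm4 ranked 7 and Tenm1 ranked 54 from the top in affected against unaffected offspring, ranks that restate the selection of Tenm2 and Tenm3 on that comparison. In affected against control offspring, Tenm3 ranked 2, Tenm4 ranked 5, Tenm2 ranked 9 and Tenm1 ranked 85. In unaffected against control offspring, Tenm2 ranked 269, the lowest of the class, Tenm3 ranked 265, Tenm4 ranked 239 and Tenm1 ranked 217. For Tenm2 and Tenm3, the ranks against control reuse the affected or unaffected values that entered the selection, so they are a description only. Centred on the 2752 genes with a longest transcript of at least 5 kb, whose median log2 difference between affected and unaffected offspring was 0.29, the values were 0.83 for Tenm2, 0.82 for Tenm3, 0.60 for Tenm4 and 0.27 for Tenm1. The part of gene length in the teneurin values was not tested.

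**Figure D4:**
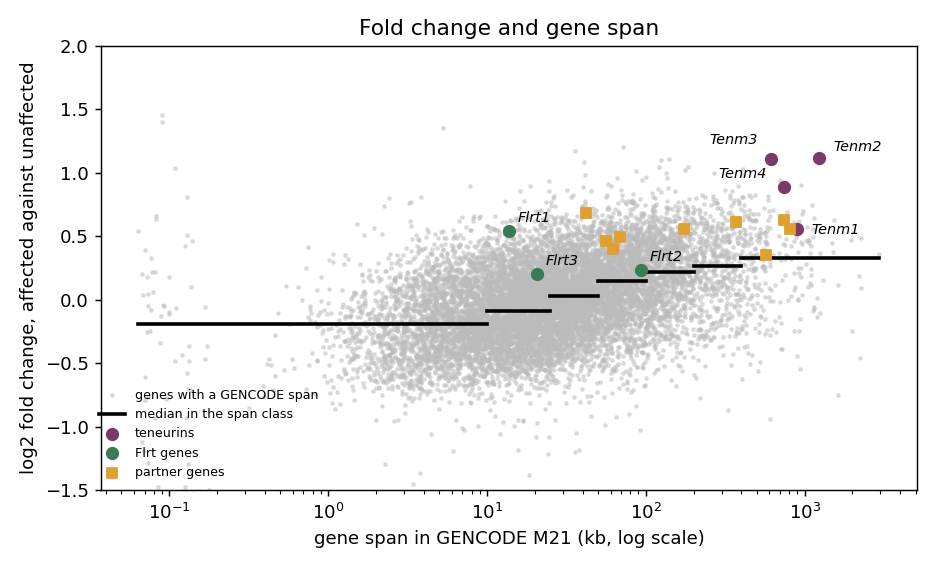
Log2 fold change in affected against unaffected offspring against gene span (kb, log scale) for 11576 genes (grey points), with 22 further genes outside the vertical axis. Black lines are the medians of the span classes, from -0.19 under 10 kb to 0.33 at 400 kb or more. Tenm2 and Tenm3 lie at the upper edge of the longest genes, Flrt2 lies close to its class median, and Flrt1 and Flrt3, at 0.54 and 0.20, lie above the median of -0.08 of their class of 10 to 25 kb.

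Markers of the tissue were read from the same table. All 8 cortical markers examined met the minimum level, with a sum of 905 FPKM in the control group, 825 in the unaffected group and 1044 in the affected group. Of these, 2 were more than 1.5-fold higher in affected than in unaffected offspring, namely Bcl11b and Tbr1, both markers of deep-layer neurons, beside 7.19% of all loci. Tbr1 stood at 75.7 FPKM in the control group, 62.1 in the unaffected group and 98.3 in the affected group, the same order of groups as the teneurins. Emx1 and Pax6, which mark cortical progenitors, went the other way, with log2 differences of -0.07 and -0.05 for affected against unaffected. Their highest values were in the unaffected group. Eomes, another progenitor marker of the list, did not, at 33.1, 33.8 and 41.5 FPKM in control, unaffected and affected offspring and a log2 difference of 0.30. Among general markers of cortical excitatory neurons, Neurod2 stood at 139, 118 and 171 FPKM and Neurod6 at 409, 379 and 416 in control, unaffected and affected offspring, with log2 differences of 0.53 and 0.14 for affected against unaffected.

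Blood genes stood in the reverse order. Their sum was 5813 FPKM in the control group, 7519 in the unaffected group and 3648 in the affected group, and 4 of 5 blood loci were more than 1.5-fold lower in affected than in unaffected offspring, beside 5.1% of all loci. The sums in control, unaffected and affected offspring were 163, 188 and 176 FPKM for markers of the ventral telencephalon, 11.9, 9.83 and 10.6 for the thalamus, 70.3, 70.4 and 51.9 for hippocampus and subiculum, and 991, 1315 and 1104 for the choroid plexus. For meninges they were 85.1, 78.3 and 75.6, for endothelium 57.2, 57.4 and 59.3, for microglia 46.5, 47.9 and 38.9, and for oligodendrocyte precursors 36.3, 34.2 and 37.1. The thalamic sum includes Gbx2 and Rora, and that of the choroid plexus Kl, which were below the minimum level. Among the thalamic markers, Tcf7l2 stood at 4.18, 2.29 and 2.39 FPKM in control, unaffected and affected offspring. Lef1 stood at 2.47, 2.57 and 3.42 FPKM. Some of these sums rest on 1 abundant gene. Without such weighting, the median log2 difference for affected against unaffected was 0.44 over the hippocampal markers, where Nts alone stood at 50.4, 50.7 and 29.7 FPKM in control, unaffected and affected offspring. Over the choroid plexus markers it was -0.06, where Ttr made up most of the sum and Clic6 stood at 4.48, 5.36 and 8.31 FPKM. Over the endothelial markers it was 0.39, and Cdh5, Tek and Flt1 had the group order of the teneurins while Cldn5, the most abundant, did not. Over the oligodendrocyte precursor markers it was 0.12, with Cspg4 at 0.83 and Sox10 at -0.27. Over the meningeal markers it was 0.04, with Dcn and Lum lower and Col1a1, Col1a2 and Col3a1 higher in affected than in unaffected offspring. The part of blood and of the make-up of the tissue in the teneurin values was not tested.

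The library kit did not mark strand, so reads of overlapping genes on opposite strands cannot be told apart. Macrod1, the host of Flrt1, stood at 3.79 FPKM in the control group, 4.43 in the unaffected group and 3.48 in the affected group, and Macrod2, the host of Flrt3, at 43.6, 41.0 and 34.6. Both were lower in affected than in unaffected offspring, unlike the deposited values of the Flrt genes within them (Flrt3 also turned lower when centred on long transcripts), and the members share 0 exonic bases with these hosts. Among the teneurins, exonic overlap in GENCODE with a gene on the opposite strand covered 1465 bases in Tenm1, 988 in Tenm4 and 114 in Tenm3. The overlaps of Tenm1 and Tenm3 lie outside the measured loci of these genes, whereas that of Tenm4 lies at the end of its locus.

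The genes most like Tenm2 and Tenm3 were sought by the distance between log2 profiles over the 3 group values, each centred on its mean. With 3 values a gene, such likeness is a weak description. The nearest to Tenm2 were 4921511C10Rik at a distance of 0.062, Tnc at 0.067 and D430041D05Rik at 0.081. Tnc, which encodes the matrix protein tenascin C of radial glia, stood at 21.8 FPKM in the control group, 14.7 in the unaffected group and 29.9 in the affected group. The nearest to Tenm3 were Fat4 at 0.0059, 4921511C10Rik at 0.044 and Ttc28 at 0.057. Fat4, a large protocadherin, stood at 4.43 FPKM in the control group, 3.17 in the unaffected group and 6.81 in the affected group. Tenm2 and Tenm3 lay 0.097 apart, Tenm2 and Tenm4 0.21, and Tenm2 and Flrt3 0.66.

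Depth could be read only in relative terms, from the steps of single fragments among loci under 0.3 FPKM. The most frequent steps put the affected libraries between 1.13 and 1.62 times as deep as control and the unaffected libraries between 1.04 and 1.20 times. These ranges rest on few loci, 182 of 3413 low loci for affected against control and 183 of 3397 for unaffected against control. The number of fragments per library is not given in the sources used here, so no counting interval was computed. The values of Tenm1 and Flrt1, near 2 FPKM, rest on the fewest fragments per base.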

How the data were processed

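RNA was sequenced as 50 bp paired-end reads from TruSeq RNA libraries of 9 fetuses. The methods of the study name STAR, Bowtie and TopHat with the mm10 genome and the Cufflinks suite, and the submitters' processing notes name Bowtie2 2.2.4.0, Cufflinks and Cuffdiff. The values deposited by the authors are FPKM, as 1 value per group and locus over the 3 animals. The authors' own fold changes, test statistics, p-values and q-values of 3 comparisons stand in the same table and were not used here.

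From the group values, log2 differences were computed with Python 3.11.15 and pandas 2.3.3, with no pseudocount, for loci with a mean of at least 1 FPKM and a value above 0 in each group. A difference over 1.5-fold was counted as higher or lower, a size and not a test. Locus starts were converted to 1-based coordinates. Gene spans came from GENCODE M21 by symbol, for 11598 of 12354 single named genes (93.9%). The table has 3871 loci with no gene name and 351 with joined names. The genes named are the members, their partners, the members of the lists past the limit or used as examples, and the 3 genes nearest to Tenm2 and to Tenm3. Members and lists were chosen with earlier results of these data known. Alternatives were other minimum levels, pseudocounts, fold limits and centrings. One marker gene of the lists is not reported here.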

Additional observations from a re-analysis of the deposited data

How the results depend on the processing

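Tenm2, Tenm3 and Tenm4 were the 3 members more than 1.5-fold higher in affected than in unaffected offspring under other minimum levels, pseudocounts and centrings, and the count became 2 at a 2-fold limit and 5 at a lower limit of 0.32 on the log2 scale. The count of members higher in affected than in control was 1, and became 4 at the lower limit and 0 at a 2-fold limit, with a pseudocount of 1 and with either centring on long genes. The count of members lower in unaffected than in control was 1, and became 3 at the lower limit and 0 under the same other settings. The partners higher in affected than in unaffected numbered 3, and became 2 at a minimum of 5 FPKM and with a pseudocount of 0.1 or 1, 9 at the lower limit and 0 at 2-fold and with either centring on long genes. At the lower limit, 5 partners were higher in affected than in control and 3 were lower in unaffected than in control. The shares of all loci past the lower and the 2-fold limits are not given, so nothing is read from the counts at those limits. The member median for affected against unaffected, 0.56, became 0.89 at a minimum of 5 FPKM and without Flrt1 and Flrt3, 0.36 with a pseudocount of 1 and centred on loci spanning at least 100 kb, and 0.27 centred on genes with transcripts of at least 5 kb. For affected against control it became 0.33 with a pseudocount of 1 and 0.36 and 0.31 with those centrings, and for unaffected against control -0.18 with a pseudocount of 1. The centring on loci of at least 100 kb subtracted medians of 0.20, 0.13 and -0.07 in affected against unaffected, affected against control and unaffected against control. Centring on transcripts of at least 5 kb and leaving out Flrt1 and Flrt3 were chosen after seeing the data. Leaving out an animal could not be run, and no paired analysis was possible because the table holds no values of single animals. The depth of each library is unknown in fragments. With 1 value per group, the precision of the differences cannot be read from the values used here, and the authors' own test statistics were not used.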
